A study of Mus musculus with 6 samples.

Results

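The organic ion and drug transporters of the renal cortex were read from one-colour Agilent arrays of male mice. The set comprised every non-control probe whose gene name belongs to the solute carrier families Slc22, Slco and Slc47 or to the ATP-binding cassette families Abcb, Abcc and Abcg, a rule on gene names alone that was set with earlier results of these data known. It held 128 probes for 68 genes of the 56605 probes on the array. By family, there were 39 probes for 25 Slc22 genes, 34 for 15 Slco genes, 3 for 2 Slc47 genes, 20 for 10 Abcb genes, 24 for 10 Abcc genes and 8 for 6 Abcg genes. A probe entered the test if every array of one group or the other read it well above background. That left 76 probes for 51 genes, 73 of them above background on all 6 arrays.

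Each group held 3 arrays of renal cortex from mice aged 16 weeks, and the question posed with them was which transcripts differ in the cortex after 8 weeks of Huangqi decoction (HQD), an extract of medicinal herbs. In the labels one group is db/m and the other db/db. The study's methods, in contrast, describe the array samples as cortex of db/db mice, some given HQD and some not, although the study also kept db/m mice on vehicle, so the first group is called labelled db/m here. Its arrays are named db/m array 1 to 3 and those of the second group db/db array 1 to 3, by their label alone. Each difference subtracts the labelled db/db mean from the labelled db/m mean, so a negative value means a lower signal in labelled db/m. The background was C57BLKS/J, in which db/db mice lack a working leptin receptor in the whole body and become obese and diabetic, while db/m mice carry a single mutant copy and stay non-diabetic. The methods give daily gavage of HQD or of its carboxymethylcellulose vehicle, and tissue collection after a night without food, and they do not give the dose of HQD for these arrays. The methods give 3 mice for each group of 3 arrays, which the labels do not tie to single arrays.

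Proximal tubule cells clear drugs, toxins and metabolic waste from blood to urine with these carriers. Organic anion transporters (OATs) and organic cation transporters (OCTs) of the Slc22 family bring charged solutes in, mostly across the basolateral membrane. The Slco genes encode organic anion transporting polypeptides (OATPs), which carry bile acids, thyroid hormones, prostaglandins and steroid conjugates. On the luminal side, MATE1 of the Slc47 family (MATEs) exchanges organic cations for protons, and Abcb, Abcc and Abcg proteins pump drugs and conjugates out with ATP. Mouse kidney is known for sex-dependent and hormone-dependent levels of many of these carriers, and all mice here were male.

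Of the 51 tested genes, each read by its brightest probe, 36 were lower in labelled db/m and 15 were higher, whereas 47.4% of all 20361 tested genes were higher. The median log2 difference of the transporter genes was -0.17, with a range of -0.62 to 1.04, beside a median of -0.020 over all genes. It was -0.25 without db/m array 2 and -0.098 without db/m array 3. Over the 76 probes, 29 were higher, against 46.5% of all probes, and 47 were lower. In limma's moderated test across all probes, 0 transporter probes had a Benjamini-Hochberg adjusted p under 0.05, as was so for 0 of all 29890 tested probes, and an equal-variance test of each probe alone gave 0 as well. A probe is called below when its unadjusted limma p was under 0.05. In that sense 10 transporter probes were called lower, where 10.8% of all tested probes were (3221), and 3 were called higher, where 6.9% of all were (2061). Among the lower probes were those of Abcb1a, Abcb6, Abcc2, Slc22a8, Slc22a18 (2 probes), Slc22a23, Slco1a6 and Slco2b1, and the 3 higher probes read Abcg4, Slc47a2 and Slco2a1. Of the higher probes, those of Abcg4 and Slc47a2 entered the test through labelled db/m alone, the group in which they are high. With a filter on all 6 arrays 1 called higher probe was left (5.88% of all probes were then called higher). Read against those shares, the count of lower probes among 76 stood near the background. By brightest probe, 9 of 51 genes were called lower, against 9.18% of all genes, and 0 called higher, against 6.67%. None of the 76 probes met the study's screen, a doubling or halving of the signal with an unadjusted p under 0.05, which 0.783% of all probes passed upward and 0.177% downward. The groups did not overlap for 9 lower probes, against 16.4% of all probes, and for 3 higher probes, against 7.75%. An exact permutation test of 3 against 3 arrays cannot go below p = 0.1, so no single probe can pass it.

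The count of called lower probes moved with single arrays, and so did that over all probes. It was 19 without db/m array 2 (13.7% of all probes), 13 without db/db array 3 (13% of all), 4 without db/m array 3 (4.06% of all) and 6 without db/db array 2 (5.14% of all). It was also 6 in the equal-variance test of each probe alone (11.2% of all), 18 with the replicate number as a block (13.6% of all), and 1 when each array was centred on 15 proximal tubule marker genes (0.759% of all).

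**Figure D1:**
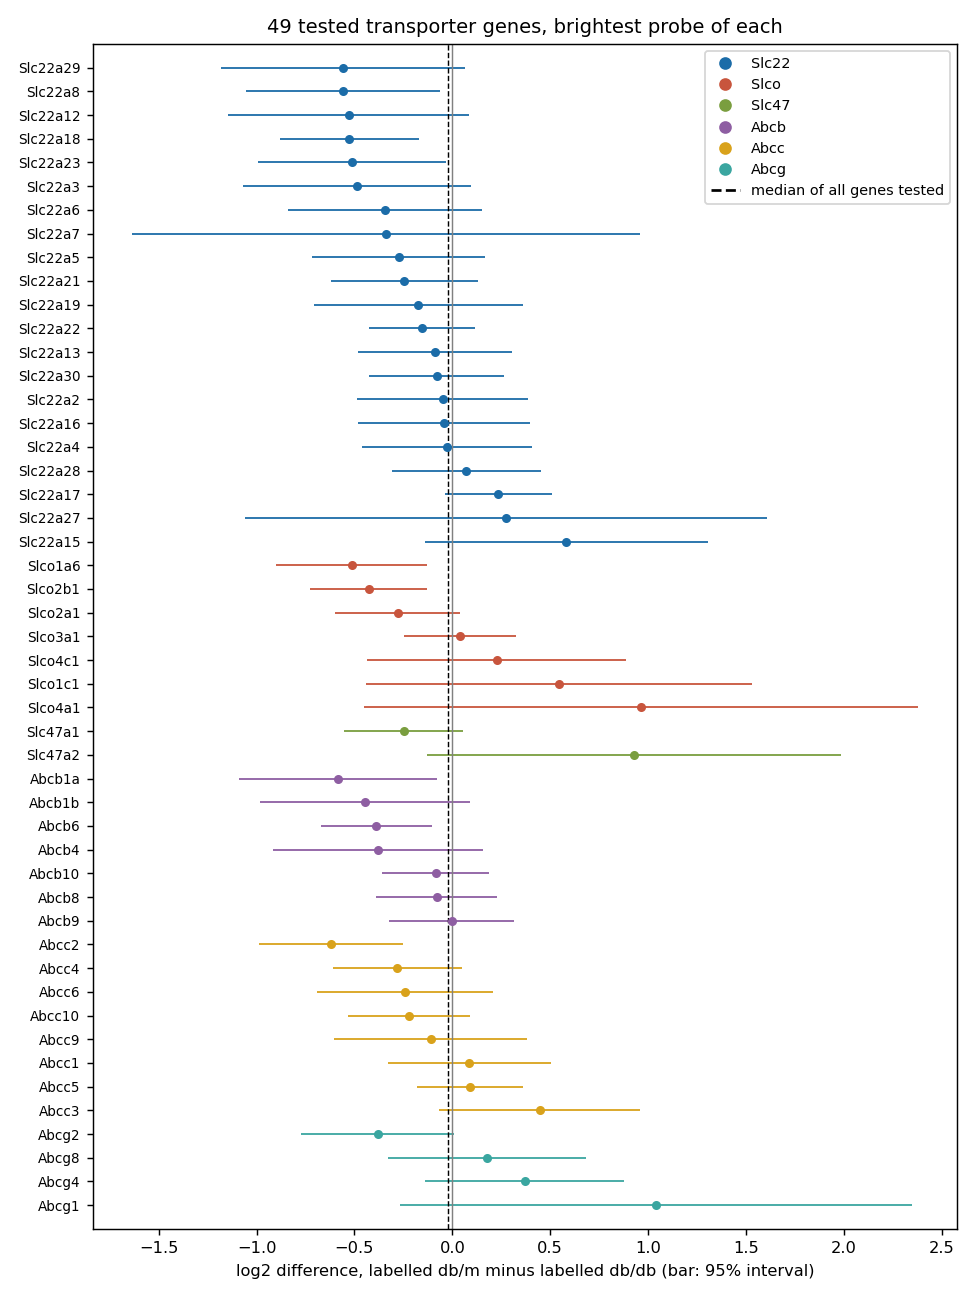
Log2 difference of labelled db/m from labelled db/db for the brightest tested probe of 49 of the 51 tested transporter genes, coloured by family, with the 95% interval of limma as a bar and the median over all genes as a dashed line. Most points lie left of 0, all 7 Abcb points among them, and the bars of 8 genes, all lower, do not reach 0.

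The OATs of the Slc22 family take up organic anions such as p-aminohippurate, urate and many diuretics and antivirals. Slc22a8, which encodes OAT3 of the basolateral membrane, was among the lowest. The log2 signals of Slc22a8, relative to the 75th percentile of each array, were 4.18, 4.998 and 4.54 in labelled db/m and 5.18, 5.18 and 5.03 in labelled db/db. All labelled db/m arrays lay below all labelled db/db arrays, with db/m array 2 the closest. The log2 difference of Slc22a8 was -0.56 (SE 0.21, n = 3 per group), which is 0.679 times the labelled db/db level, with an adjusted p = 0.261. Its call was lost without any single array except db/m array 2, at differences of -0.61 to -0.36. It was also lost under quantile normalization (-0.40), in the deposited matrix (-0.40), in the equal-variance test of each probe alone and with proximal tubule centring (-0.37).

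Slc22a6 encodes OAT1, the p-aminohippurate carrier, and lies next to Slc22a8 on chromosome 19. Its signals were 6.48, 7.24 and 6.90 in labelled db/m and 7.15, 7.40 and 7.09 in labelled db/db. db/m array 2 lay among the labelled db/db arrays and the other labelled db/m arrays lay below them. The difference of -0.34 (95% interval -0.84 to 0.15) had an adjusted p = 0.392, and without db/m array 2 it was -0.53 and called. Without db/m array 1 it was -0.15. Slc22a12, the urate exchanger URAT1 of the brush border, had signals of 3.99, 4.03 and 3.12 against 4.17, 4.45 and 4.12. The groups did not overlap, with db/m array 3 the lowest array, and the difference was -0.53 (adjusted p = 0.321). Slc22a12 was called without db/m array 2, at a difference of -0.69. Without db/m array 3 its difference was smaller and not called.

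The other OAT genes differed less or varied more. Slc22a7, which encodes OAT2, had signals of -1.14, 0.13 and -1.89 against -0.86, -1.12 and 0.097, a spread within each group larger than the difference of -0.34. Slc22a13, the nicotinate and urate carrier OAT10, differed by -0.089 (95% interval -0.48 to 0.31) and Slc22a19, OAT5, by -0.17 (95% interval -0.70 to 0.36). The groups overlapped for all of these. The mouse OAT cluster that Slc22a6 and Slc22a8 close on chromosome 19 held 8 of the genes between 7757092 and 8700927 (mm9), and 5 of its 7 tested members were lower, over a range of -0.56 to 0.27. Slc22a26 to Slc22a30 of that cluster are close copies, and how far their probes share target RNA was not tested.

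Among the OCTs, Slc22a2 (OCT2) is the main basolateral cation carrier of the kidney. Its signals were 3.88, 4.44 and 4.20 in labelled db/m and 4.04, 4.46 and 4.17 in labelled db/db, ranges that coincided, and the difference was -0.050 (95% interval -0.49 to 0.39). Its sign turned under quantile normalization, to 0.076. Slc22a3 (OCT3), a low-affinity carrier of monoamines, was dim and differed by -0.49 (adjusted p = 0.329), which became -0.75 and called without db/db array 3.

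Carnitine is carried by Slc22a5 (OCTN2), whose signals of 4.71, 5.35 and 4.96 against 5.10, 5.41 and 5.33 overlapped, with a difference of -0.27 (adjusted p = 0.432). Without db/m array 2 its difference was -0.44 and called. Slc22a4 (OCTN1), the ergothioneine carrier beside it, differed by -0.026 (95% interval -0.46 to 0.41), with a sign that turned under quantile normalization. Together with Slc22a21, these genes lie between 53678030 and 53796900 of chromosome 11 (mm9), and all 3 were on the lower side, at -0.27 to -0.026.

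The second probe of Slc22a18 had the lowest unadjusted p of the tested members. It encodes an organic cation transporter-like protein and sits in the imprinted domain of distal chromosome 7. Its brighter probe (chr7:150685129-150685188, mm9) read 7.03, 7.44 and 7.07 in labelled db/m and 7.74, 7.83 and 7.56 in labelled db/db. A second probe of the gene (chr7:150662151-150662210) read 2.41, 2.82 and 2.49 against 3.37, 3.42 and 3.24. For both probes, every labelled db/m array was below every labelled db/db array, and db/m array 2 was the highest of its group. The differences were -0.53 (SE 0.15, adjusted p = 0.240) and -0.77 (SE 0.14, adjusted p = 0.240), which correspond to 0.694 and 0.587 times labelled db/db. The second probe kept its direction and its call in all 18 alternatives, between -0.89 and -0.58, and was the 1 lower transporter probe called when arrays were centred on proximal tubule markers. The brighter probe lost its call under that centring (-0.34).

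Slc22a23, a member with no settled substrate, read 3.94, 4.65 and 4.17 in labelled db/m and 4.59, 4.94 and 4.77 in labelled db/db. db/m array 2 lay above the lowest labelled db/db array, so the groups overlapped. Its difference was -0.51 (SE 0.20, adjusted p = 0.269), a call lost without db/m array 1 (-0.36) or 3 (-0.47), without db/db array 2 (-0.43) or 3 (-0.51), under quantile normalization (-0.38), in the deposited matrix (-0.37), with proximal tubule centring (-0.33), with no filter on dim probes and in the equal-variance test. In all, 18 of the 22 tested Slc22 genes were lower and 4 were higher, with a median of -0.21 (-0.36 without db/m array 2), and 4 of them were called lower, where 9.18% of all genes were.

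**Figure D2:**
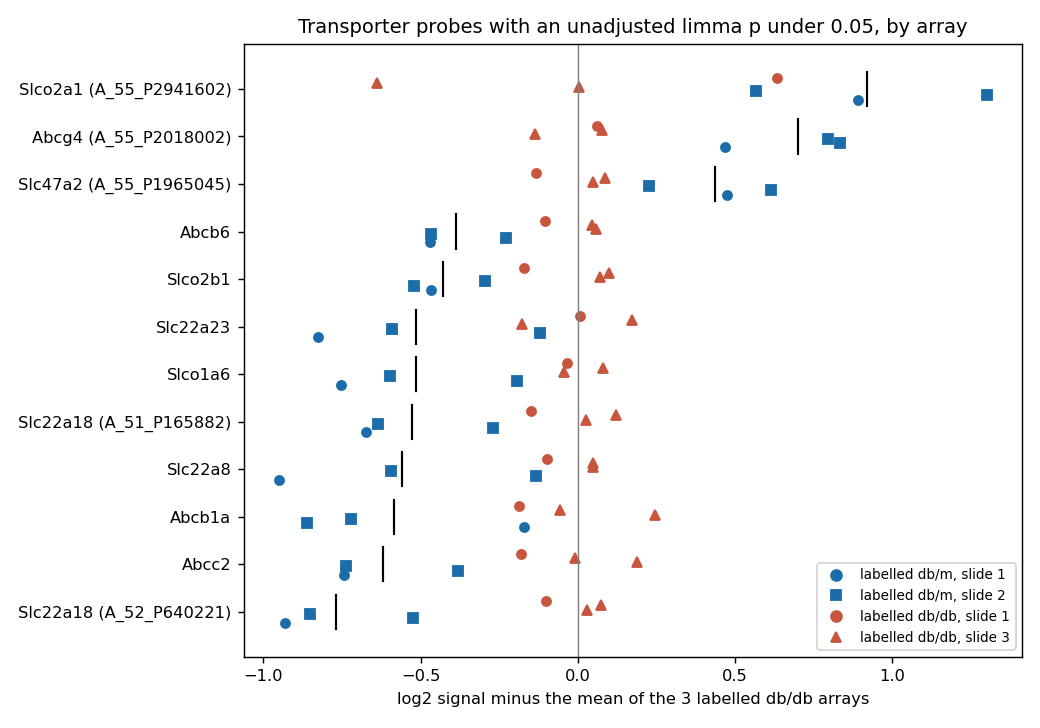
Log2 signal of 12 of the 13 called transporter probes on each of the 6 arrays, set against the mean of the 3 labelled db/db arrays, with colour for the group, marker shape for the slide and a vertical tick at the mean of labelled db/m. Among the 9 lower probes plotted, db/m array 2 is the highest labelled db/m array in 7 and db/db array 3 the lowest labelled db/db array in 7.

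The OATP genes were divided. Slco1a6, a kidney member of the Slco1a group, read 3.38, 3.93 and 3.53 in labelled db/m and 4.08, 4.21 and 4.09 in labelled db/db by its brighter probe (chr6:142034707-142034766, mm9). All labelled db/m arrays were below the labelled db/db arrays, which were tightly grouped. The difference was -0.51 (SE 0.16, adjusted p = 0.240). It was lost as a call without db/m array 1 (-0.40) or 3 (-0.47) or db/db array 2 (-0.47), and with proximal tubule centring (-0.33). The dimmer Slco1a6 probe differed by -0.19 (adjusted p = 0.635). On slide 1, db/m array 1 minus db/db array 3 was -0.72 for the brighter probe and 0.50 for the dimmer one. Slco1a1 and Slco1a4, close relatives of Slco1a6, had no tested probe, and whether the Slco1a6 probes share target RNA with these close copies was not tested.

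Slco2b1 encodes a broad carrier of sulphated steroids and drugs. Its brighter probe (chr7:106807008-106807067, mm9) read 1.76, 1.71 and 1.93 in labelled db/m and 2.30, 2.33 and 2.06 in labelled db/db, without overlap. The difference was -0.43 (SE 0.13), or 0.743 times labelled db/db, with an adjusted p = 0.240, and it stayed called without any single array. Its call was lost with proximal tubule centring (-0.24). On slide 1, which held both groups, db/m array 1 minus db/db array 3 was -0.30. A dim second probe differed by 0.11 (adjusted p = 0.806), so the probes of Slco2b1 did not show the same sign.

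Slco2a1, the prostaglandin carrier, had 3 tested probes with differing signs. Its brightest probe read 1.46, 1.34 and 1.38 in labelled db/m and 1.82, 1.77 and 1.44 in labelled db/db, a difference of -0.28 (adjusted p = 0.316). A dim probe far from the other probes of the gene (chr9:102913679-102913921, mm9, annotated to another transcript) read -0.69, -0.28 and -1.01 against -1.58, -2.21 and -0.94. There db/db array 3, the highest of its group, exceeded the lowest labelled db/m array, and the difference was 0.92 (SE 0.34, adjusted p = 0.259). That call was lost without db/m array 1 (0.93) or 2 (0.73) and without db/db array 1 (0.92) or 2 (0.60), and its within-slide difference was 0.26. It was also lost in the equal-variance test of each probe alone and with the replicate number as a block.

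Slco4a1, a thyroid hormone carrier, showed a split within labelled db/m. The brightest probe (chr2:180209483-180209542, mm9) read 3.29, 1.18 and 3.58 in labelled db/m and 1.74, 1.55 and 1.87 in labelled db/db. db/m arrays 1 and 3 were high, and db/m array 2 was below all other arrays. Over all arrays the difference was 0.96 (95% interval -0.45 to 2.38, adjusted p = 0.400), and without db/m array 2 it was 1.72, with an adjusted p = 0.0447. Slco4c1, the digoxin carrier of the basolateral membrane, differed by 0.23, most of it from db/m array 1, without which it was -0.099. Slco3a1 differed by 0.038 (95% interval -0.25 to 0.32), and its 4 tested probes ranged from -0.11 to 0.16. Over the 7 tested Slco genes the median was 0.038, with 4 higher and 3 lower, and it was -0.12 when only probes above background on all 6 arrays were kept.

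Both MATE genes lie side by side on chromosome 11, and MATE1 exports organic cations such as metformin into the tubule lumen. Slc47a1 (MATE1) read 6.51, 6.75 and 6.51 in labelled db/m and 6.93, 6.90 and 6.69 in labelled db/db. Only db/m array 2 reached into the labelled db/db range, and the difference was -0.25 (95% interval -0.55 to 0.055, adjusted p = 0.335). It was called without that array and also without db/db array 3.

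Slc47a2 (MATE2) was dim and higher in labelled db/m. Its brighter probe read -2.89, -0.94 and -1.96 in labelled db/m and -2.90, -2.87 and -2.80 in labelled db/db, with db/m arrays 2 and 3 above all others and db/m array 1 within the labelled db/db range. The difference was 0.93 (adjusted p = 0.316), and 1.41 and called without db/m array 1. A still dimmer probe (chr11:61115133-61115192, mm9) read -3.46, -3.32 and -3.71 against -3.88, -3.85 and -4.07 and was well above background on 1 labelled db/db array. It differed by 0.44 (SE 0.14, adjusted p = 0.240), by 0.40 with dim arrays set at the lowest signal well above background, and by 0.16 after normexp background correction. Its call was lost under normexp, under quantile normalization (0.24), in the deposited matrix (0.24), with trended and robust variance, with the fixed slide block (0.61) and without db/db array 3 (0.37).

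All 8 tested Abcb genes were lower in labelled db/m, with a median of -0.28 and a range of -0.58 to -0.0039. Without db/m array 3 the median was -0.17. Abcb1a and Abcb1b encode the mouse P-glycoproteins, drug efflux pumps of the brush border and of capillaries, and Abcb4 encodes a phospholipid floppase. These 3 genes are neighbours between 8733543 and 8959167 of chromosome 5 (mm9). Abcb1a read 0.55, -0.14 and 0.0014 in labelled db/m and 0.97, 0.67 and 0.53 in labelled db/db, and db/m array 1 lay just above the lowest labelled db/db array. Abcb1b read 1.24, 0.78 and 0.59 against 1.67, 1.24 and 1.05. Abcb4 read 1.40, 0.83 and 0.71 against 1.69, 1.23 and 1.17. In all 3 genes db/m array 1 was the highest labelled db/m array and db/db array 1 the highest of its group. The differences were -0.58 (SE 0.21, adjusted p = 0.254) for Abcb1a, -0.44 (adjusted p = 0.331) for Abcb1b and -0.38 (adjusted p = 0.386) for Abcb4. Within slide 1, the only slide with both groups, db/m array 1 minus db/db array 3 was 0.017 for Abcb1a, 0.19 for Abcb1b and 0.22 for Abcb4. These were the highest labelled db/m array and the lowest labelled db/db array for all 3 genes, so slide and single-array spread cannot be told apart. The Abcb1a call was also lost without db/m array 2 (-0.45) or 3 (-0.52) and without db/db array 1 (-0.46) or 2 (-0.61). It was lost as well in the equal-variance test of each probe alone and with proximal tubule centring. Abcb1b and Abcb4 were called without db/m array 1, at -0.63 and -0.59.

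Abcb6, a porphyrin transporter, read 1.85, 2.09 and 1.85 in labelled db/m and 2.38, 2.36 and 2.21 in labelled db/db (chr1:75168430-75168489, mm9). Its groups did not overlap. The difference was -0.39 (SE 0.12), or 0.764 times labelled db/db, with an adjusted p = 0.240. Its call was lost without db/m array 3 (-0.35) and with proximal tubule centring (-0.20). Within slide 1, db/m array 1 minus db/db array 3 was -0.36. Abcb8, Abcb9 and Abcb10, which encode organelle transporters, differed by -0.085 to -0.0039 by their brightest probes. A dimmer Abcb8 probe differed by -0.32 (adjusted p = 0.284), with overlapping groups and no call. It was called in some alternatives, among them normexp (-0.29) and without db/m array 2 (-0.42).

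Abcc2 had the lowest difference of all 51 genes by brightest probe. It encodes MRP2, the brush border pump for glucuronide and glutathione conjugates. Its signals were 3.43, 3.79 and 3.44 in labelled db/m and 4.36, 4.16 and 3.99 in labelled db/db (chr19:43912079-43912138, mm9). The groups did not overlap, and the closest arrays were db/m array 2 and db/db array 3. The difference was -0.62 (SE 0.15, 95% interval -0.99 to -0.25), or 0.651 times labelled db/db, with an adjusted p = 0.240. It stayed called without any single array and lost its call with the slide as a fixed block of 1 array per group (-0.56) and with proximal tubule centring (-0.43).

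The promoter of Abcc2 is printed because Abcc2 led the transporter genes and its window holds the letters of an antioxidant response element, TGACNNNGC, in capitals. Such elements bind NRF2, the product of Nfe2l2 and a known inducer of conjugate pumps. The window is the 250 bases before the RefSeq start on the plus strand of GRCm38.p6.
Abcc2, chr19:43782058-43782307: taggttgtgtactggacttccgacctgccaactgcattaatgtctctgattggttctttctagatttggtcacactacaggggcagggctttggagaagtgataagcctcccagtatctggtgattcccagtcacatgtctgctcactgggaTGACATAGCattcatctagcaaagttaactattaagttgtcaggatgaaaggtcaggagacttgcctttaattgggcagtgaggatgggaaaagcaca
TGACNNNGC, searched on both strands as TGACNNNGC and GCNNNGTCA, occurred in 10.2% of all 32851 RefSeq promoter windows of that length and in 9 of the 64 windows of 54 transporter genes (14.1%), and in Abcc2 its first base lay at position -98 from the start. Nfe2l2 itself differed by 0.17 (adjusted p = 0.582). No binding was measured.

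The other MRP genes were mixed. Abcc4 (MRP4), the brush border exporter of cyclic nucleotides and urate, read 3.73, 4.002 and 3.96 in labelled db/m and 3.97, 4.26 and 4.30 in labelled db/db, which overlapped, and differed by -0.28 (adjusted p = 0.324), or by -0.38, then called, without db/db array 1. Abcc3 (MRP3), a basolateral conjugate pump, was on the higher side at 0.45 (adjusted p = 0.318), with db/m array 1 at 1.22 above the other 5 arrays, which lay between 0.21 and 0.60. It was called without db/db array 3, at 0.58. Abcc1 (MRP1) differed by 0.087, and by -0.032 without db/m array 1. Abcc6, an ATP release protein linked to mineralisation, differed by -0.24, and by -0.42, then called, without db/m array 2. The Abcc6 difference was smaller without db/m array 1, the lowest of its group. The 6 tested probes of Abcc5 ranged from -0.44 to 0.73 with a brightest probe at 0.090, so its sign depended on the probe. Over the 8 tested Abcc genes, 5 were lower and 3 higher, with a median of -0.17, which was -0.099 without db/db array 1.

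Of the half-transporters of the Abcg family, Abcg2 (BCRP) exports urate and many drugs across the brush border. It read 5.73, 6.26 and 5.94 in labelled db/m and 6.23, 6.50 and 6.34 in labelled db/db, with an overlap by db/m array 2 alone. The difference was -0.38 (95% interval -0.77 to 0.0081, adjusted p = 0.287), and without that array it was -0.53 and called. Abcg1, a cholesterol exporter known from macrophages and endothelium, read 1.62, -0.59 and 1.30 in labelled db/m and -0.093, -0.52 and -0.18 in labelled db/db. As in Slco4a1, db/m arrays 1 and 3 were high and db/m array 2 was the lowest of all arrays. The difference was 1.04 (95% interval -0.27 to 2.35, adjusted p = 0.345), and without db/m array 2 it was 1.72, with an adjusted p = 0.0487. Slco4a1 and Abcg1 were the 2 transporter genes with an adjusted p under 0.05 without that array, the lowest array for both, and 59 probes over the whole array then had one.

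Abcg4, a relative of Abcg1, was dim. One probe (chr9:44081302-44081361, mm9) read -3.46, -3.10 and -3.14 in labelled db/m and -4.07, -3.86 and -3.87 in labelled db/db, where it was well above background on 1 array. The difference was 0.70 (SE 0.14, adjusted p = 0.240), or 0.60 with dim arrays at the lowest signal well above background. After normexp background correction it was 0.27 and no longer called. The brighter Abcg4 probe differed by 0.37 (adjusted p = 0.376). Abcg8, the sterol exporter partner of Abcg5, differed by 0.18, and by 0.42, then called, without db/db array 3. Over the 4 tested Abcg genes, 3 were higher and 1 was lower, with a median of 0.27, which ranged from 0.14 without db/db array 2 to 0.52 without db/db array 3.

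The genes known to work with these carriers were read from lists chosen by function. Of 20 tested regulators, 0 were called higher, where 6.67% of all genes were, and 3 lower, where 9.18% were, with a median of -0.14. Among these were Ghr, the growth hormone receptor (-0.38, adjusted p = 0.246), and Nr1i2, the xenobiotic receptor PXR (-0.32, adjusted p = 0.256). Of 8 scaffold genes that hold carriers at the membrane, 2 were called lower, Ezr (-0.35, adjusted p = 0.245) and Slc9a3r1, which encodes NHERF1 (-0.37, adjusted p = 0.271). OATs exchange anions for dicarboxylates that Slc13 carriers and the sodium pump maintain. Of 8 genes of that supply, 2 were called lower, the sulphate carrier Slc13a1 (-0.39, adjusted p = 0.269) and the dicarboxylate carrier Slc13a2 (-0.53, adjusted p = 0.247).

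Other organic solute carriers and the conjugating enzymes that make substrates for MRP2 and the OATs were read in the same way, against the same 9.18% of all genes called lower and 6.67% called higher. Of 19 tested carriers outside the named families, 3 were called lower and 0 higher, namely Slc17a1 (-0.44) and Slc17a4 (-0.72), which carry urate and organic anions, and the nucleoside carrier Slc28a1 (-0.62). Their adjusted p was 0.240, 0.240 and 0.240. Of 24 tested conjugation enzymes, 8 were called lower and 1 was called higher, with a median of -0.19. The UDP-glycosyltransferases Ugt1a10 (-0.70), Ugt2b34 (-0.62), Ugt3a1 (-0.33) and Ugt3a2 (-0.31), the sulphotransferases Sult1b1 (-0.55) and Sult1c2 (-0.33), the acetyltransferase Nat8 (-0.47) and the methyltransferase Tpmt (-0.34) were those called lower. Ephx1, an epoxide hydrolase, was the one called higher (0.41). The adjusted p was not under 0.05 for any gene of these lists.

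Levels of proximal tubule markers are given beside those of the lower transporters. Relative to the labelled db/db mean, the 10 lower probes averaged -0.67, -0.34 and -0.61 in labelled db/m and 0.051, 0.067 and -0.12 in labelled db/db. Among all genes, 9.18% were called lower and 6.67% higher. All 15 proximal tubule markers were tested, 13 were lower and 0 were called, with a median of -0.16. Their mean, on the same relative scale, was -0.48, 0.12 and -0.20 in labelled db/m and -0.13, 0.082 and 0.048 in labelled db/db, with the highest value in db/m array 2, as were 17 of the 22 tested Slc22 genes among the labelled db/m arrays. The 22 tested Slc22 genes averaged -0.31, 0.054 and -0.34 in labelled db/m and -0.033, 0.014 and 0.019 in labelled db/db. Markers and Slc22 genes were both highest on db/m array 2 and lowest on db/m arrays 1 and 3. The 10 lower probes were selected for a low labelled db/m level, so their order of arrays cannot be compared with the markers. Centring each array on those markers adds 0.19 to every difference, and the median of the 51 transporter genes was then 0.014. Of all tested probes, 227 were then called lower and 2972 called higher. In whole cortex, fewer tubule cells and less RNA per cell cannot be told apart, and the part of tubule content in the transporter differences was not tested further.

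Markers of tissue beside the cortex separated the same arrays. Of 6 urothelium and inner medulla markers, 3 were tested, and Aqp4, Krt5 and Slc14a2 were higher by 1.48, 1.53 and 1.59, while the urothelial genes Upk1b, Upk2 and Upk3a had no tested probe. Their mean relative level was 1.98, 0.39 and 2.23 in labelled db/m and 0.14, -0.48 and 0.33 in labelled db/db. db/m arrays 1 and 3 were thus the arrays with the highest levels of these markers, of Slco4a1 and of Abcg1. Of 6 tested immune markers, Itgam and Ptprc were called higher, where 6.67% of all genes were, and the median was 0.37. The part of medullary or immune tissue in the transporter values was not tested.

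**Figure D3:**
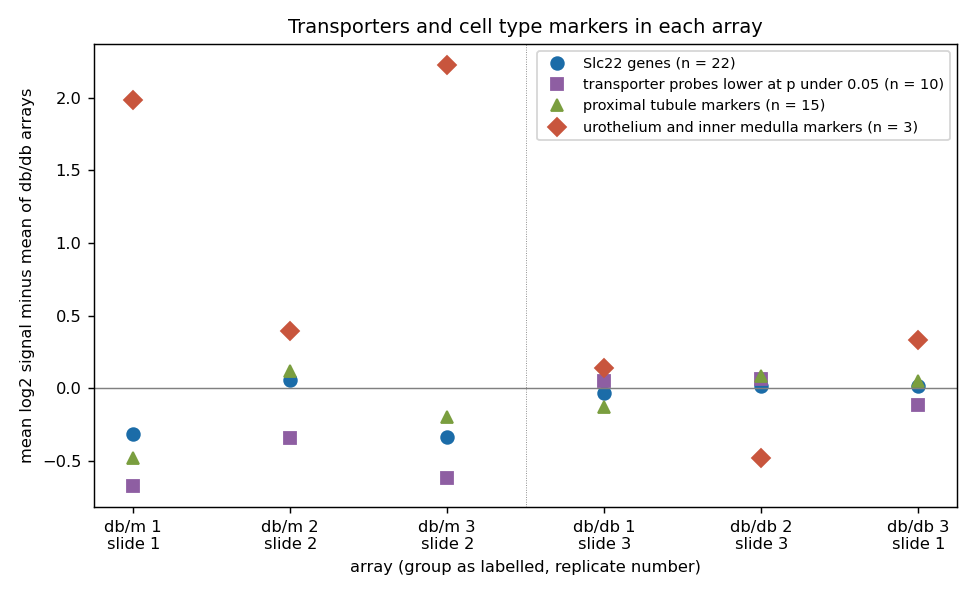
Mean log2 signal on each of the 6 arrays, relative to the labelled db/db mean, of the 22 tested Slc22 genes, the 10 lower transporter probes, 15 proximal tubule markers and 3 urothelium and inner medulla markers, with the slide of each array below its name. db/m arrays 1 and 3 lie lowest for the Slc22 genes and highest for the urothelium and inner medulla markers. The 10 lower probes were selected for a low labelled db/m level, so their order of arrays is not compared with the markers.

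Slides and groups overlapped in part. Slide 1 held db/m array 1 and db/db array 3, slide 2 the other labelled db/m arrays and slide 3 the other labelled db/db arrays. A fit with the slide as a fixed block therefore rests on 1 array per group. It called 6 lower transporter probes, where 5.16% of all probes were, and 5 higher, where 4.55% were, of which 4 lower and 0 higher were among those called without it. The lower probes shared by both fits were Slc22a8 (-0.85), the brighter Slco1a6 probe (-0.72), the second Slc22a18 probe (-0.83) and Slc22a23 (-0.83). The dimmer Slco1a6 probe stood on the higher side with the block, at 0.50. The median of the Slc22 genes was then -0.40, against -0.21 without the block, that of the Abcg genes -0.25, against 0.27, and that of the Slc47 genes -0.13, against 0.34.

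**Figure D4:**
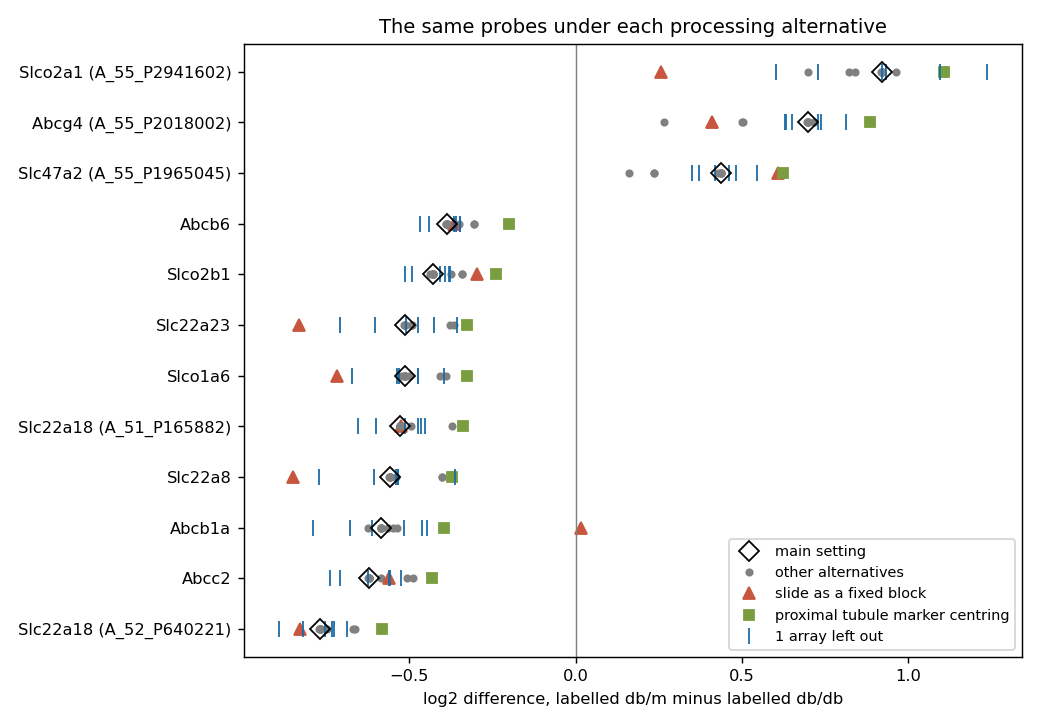
Log2 difference of labelled db/m from labelled db/db for the same 12 probes under each processing alternative, with a diamond for the setting reported, a triangle for the slide as a fixed block, a square for proximal tubule marker centring and a bar for each array left out. The slide block moves Abcb1a to 0.017, and marker centring adds 0.19 to every probe by construction.

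The remaining 17 genes had no tested probe. For 9 of these no array read a signal well above background, namely for the bile salt pump Abcb11, Abcb5, Abcg3, Slc22a20, Slco1a5, Slco1b2, Slco6b1, Slco6c1 and Slco6d1. Abcc12 had such a signal only in a probe left out for an outlier mark. The others were Abcc8, Abcg5, Slc22a14, Slc22a26, Slco1a1, Slco1a4 and Slco5a1, each above background on some arrays but not on all 3 of a group. One probe of Abcb5 was also left out for an outlier mark. No call in either direction can be made for these genes. Of the 51 tested genes, 16 had more than 1 tested probe and 6 of those had probes of opposite sign, Abcc5, Slc22a30, Slco2a1, Slco2b1, Slco3a1 and Slco4a1.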

How the data were processed

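RNA of renal cortex was labelled with Cy3 and hybridised to 1 one-colour Agilent array per sample, 3 per group. The authors deposited a scanner file per array, in which Agilent Feature Extraction 10.7.1.1 (per the submitters' processing notes) gives a background-subtracted intensity for each spot without scaling across arrays. A matrix of log2 values was deposited too, and its columns tracked the log2 intensity of the matching arrays (Pearson r of 0.998 or more across probes). Its normalization method, build and gene model are not given in the sources used here.

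The work used limma 3.58.1 under R 4.3.3. After removal of control spots and of 135 probes marked as outliers, spots of a probe were averaged and log2 intensity was expressed relative to the 75th percentile of its array. Between 51.6% and 59.1% of probes were well above background on an array, and 75 to 86 of the transporter probes were. No probe was saturated. The number of arrays limits the precision. Probes well above background on every array of a group were fitted with lmFit and eBayes over 29890 probes, and p-values were adjusted by the Benjamini-Hochberg method over all of them. The procedure was checked on simulated data, and the outcome of that check is not reported here.

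Members were found by gene name in the scanner files, and 101 of their probes matched RefSeq by accession with the same symbol. Members and lists were chosen with earlier results of these data known. Genes were named when a probe had an unadjusted p under 0.05, when they belonged to a list of well-studied transporters, when probes disagreed in sign with such a p, or, in the functional lists, when the brightest probe had such a p. Probe coordinates are mm9, as in the files, and were not assigned to exons or UTRs. The promoter is from RefSeq on GRCm38.p6 and was not compared with mm9 positions. A few genes count in the totals and are not reported here by name.

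Alternatives were quantile normalization, median centring, normexp with an offset of 50, no filter, a filter on all 6 arrays, the deposited matrix, an equal-variance test of each probe alone (a one-way ANOVA of 2 groups; the sources used here name no test for the arrays), eBayes with trend and robust variance, the slide as a fixed or random block, the replicate number as a block, other probes of a gene, and each array left out. Centring on proximal tubule markers was added after seeing the data. Samples with the same number correlated in their deviations from the group means at 0.35, 0.15 and 0.05, and no label ties them to each other.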

Additional observations from a re-analysis of the deposited data

How the results depend on the processing

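Of the 40 named probes, all kept their direction under normexp and the random slide block (consensus correlation -0.10). All 40 also kept it under median centring, which shifts every difference by the same small amount. The difference itself is unchanged with no filter on dim probes and with the filter on all 6 arrays, which left 38 probes. It is also unchanged in the equal-variance test of each probe alone, the trended and robust fit and the replicate block. Direction could not turn in these settings, where only calls can change. Directions turned in 3 under quantile normalization, with Slc22a2 at 0.076, Slc22a4 at 0.062 and Slc22a13 at 0.086, and in the deposited matrix (0.075, 0.063 and 0.085). The fixed slide block, which compares 1 array per group, turned 11 probes, namely Abcb1a (0.017), Abcb1b (0.19), Abcb4 (0.22), Slc22a3 (0.0071), Slc22a4 (0.088), Slc22a13 (0.23), Slc22a19 (0.31), the brightest Slco2a1 probe (0.024), the second Slco2b1 probe (-0.23), the brighter Slc47a2 probe (-0.089) and Abcg8 (-0.31). Under it 6 transporter probes were lower and 5 higher by call, 2 passed the screen upward (1.22% of all probes), and the family medians were -0.40 (Slc22), -0.13 (Slc47), 0.037 (Abcc) and -0.25 (Abcg). Proximal tubule marker centring, chosen after seeing the data, adds 0.19 to every difference. It left 1 lower probe (0.759% of all), brought 2 past the screen upward (2.32% of all probes) and 6 to non-overlap on the higher side (10.9% of all). It gave medians of 0.014 over all transporter genes, -0.022 (Slc22), -0.093 (Abcb) and 0.021 (Abcc). By that shift alone it turned Slc22a2 (0.14), Slc22a4 (0.16), Slc22a13 (0.098), Slc22a19 (0.014) and the middle Slco2a1 probe (0.10). Higher probes numbered 1 after normexp (4.97% of all probes) and 1 with the filter on all 6 arrays (5.88% of all). That filter left 1 non-overlapping higher probe (6.86% of all) and an Slco median of -0.12, since fewer dim probes were tested. Lower probes numbered 6 in the equal-variance test of each probe alone (11.2% of all). The replicate block gave 18 lower probes (13.6% of all), all 10 of the reported ones among them. Its numbers do not pair the samples, since 1 of the 3 same-number correlations was under 0.1, and not every sample matched its own number best. Other probes of the same gene turned Abcc5 (-0.44 and -0.037), Slco3a1 (-0.11), Slco2b1 (0.11), Slco4a1 (-0.017) and Slco2a1 (0.92). With each array left out in turn, the lower probes ranged from 4 to 19 (4.06% to 13.7% of all probes) and the higher from 2 to 7 (3.63% to 11.2% of all). Those past the screen upward ranged from 0 to 4 (0.284% to 2.39% of all). Those at an adjusted p under 0.05 ranged from 0 to 2 (0% to 0.412% of all). Non-overlapping probes then ranged from 4 to 10 (higher, 9.95% to 18.5% of all) and from 10 to 23 (lower, 17.4% to 28.9% of all), since fewer arrays overlap less, and the medians from -0.099 to 0.079 (Slco), -0.36 to -0.14 (Slc22), 0.052 to 0.60 (Slc47, lowest without db/m array 2), -0.32 to -0.17 (Abcb), -0.20 to -0.099 (Abcc), 0.14 to 0.52 (Abcg) and -0.25 to -0.098 (all transporter genes). Leaving out an array turned Slc22a2 (-0.18 to 0.096), Slc22a4 (-0.18 to 0.096), Slc22a7 (-0.89 to 0.12), Slc22a13 (-0.26 to 0.041), Slc22a19 (-0.36 to 0.058), Slco3a1 (-0.023 to 0.11), Slco4c1 (-0.099 to 0.43), Abcc1 (-0.032 to 0.26) and the second Slco2b1 probe (-0.071 to 0.33). Beyond the cases named, the cause of these shifts was not tested. Dim probes such as those of Slc47a2 and Abcg4 lie near background, which limits their values.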
